A study of Mus musculus with 6 samples.

Results

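Protein phosphatase 2A (PP2A) subunit genes were followed in neutrophils, short-lived phagocytes made in the bone marrow, from wild type (WT) mice and from mice meant to lack LRP5, a cell surface receptor of the LDL receptor family, in myeloid cells. The 10 genes were picked by symbol from 52636 genes in the deposited table and encode both catalytic subunits, both scaffold subunits and 6 regulatory subunits. Ppp2r5a brought the family to attention because its p was among the small ones of the same comparison between genotypes. The differences between genotypes in these genes are therefore given as a description, with no p for any of them, and counts of limma calls among them are set beside the share over all genes without being read as support.

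RNA of bone marrow neutrophils was sequenced in 6 libraries, 3 per group, all from C57BL/6N mice aged 10 weeks. The libraries labelled WT came from wild type mice, for which the labels give no Cre or floxed allele. Those labelled LRP5-null carried the genotype LRP5f/f/Lyz2Cre+, in which both Lrp5 alleles are floxed and Cre sits in Lyz2, a lysozyme gene active in neutrophils, monocytes and macrophages alike. The labels do not say whether each library is 1 mouse or a pool, so the spread between libraries may be technical in part.

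Lrp5, the targeted gene, was not lower where the label says LRP5-null. It was 1.12, 1.31 and 1.42 TPM in the libraries labelled WT and 1.68, 1.77 and 2.07 TPM in those labelled LRP5-null (log2 fold change 0.31, limma adjusted p = 0.136), so every direction below rests on the labels. A gene total can miss the loss of single exons, and reads of the floxed exons were not analysed here. Lyz2, where Cre is inserted, was lower in the libraries labelled LRP5-null by 0.91 on the log2 scale (limma adjusted p = 0.00351). The neutrophil genes S100a8, S100a9, Ly6g, Lcn2 and Retnlg were between 920.2 and 230600 TPM in each library. Markers of B cells summed to 10.9 to 12.3 TPM and those of T and NK cells to 1.95 to 2.80 TPM. Those of erythroid cells summed to 35.3 to 48.8 TPM and those of monocytes and macrophages to 564 to 723 TPM. Of this last sum, Ly6c2 alone made up 513 to 664 TPM, while Ccr2, F13a1 and Ms4a6c were each 0.863 to 2.81 TPM. Of the 6 monocyte and macrophage markers, 1 had groups without overlap, beside 29.7% of all genes tested. It was Adgre1, at 10.3 to 12.6 TPM in the libraries labelled WT and 14.4 to 15.6 TPM in those labelled LRP5-null. Libraries held 249841492 to 340580330 reads. WT replicates 1 and 2 stood apart from the other 4 libraries, with 1.20% and 1.30% of reads on ribosomal RNA against 2.69% to 3.30%. Gene levels in these replicates also leaned away from GC-rich transcripts (Spearman correlation of a gene's deviation with GC content, over 8769 genes, −0.61 and −0.43, against 0.33 to 0.44 in the others). WT replicate 3 was the WT library most like those labelled LRP5-null in these measures, and several values below are also given without it.

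PP2A is one of the main serine and threonine phosphatases of animal cells. A scaffold (A) subunit, a horseshoe of helical repeats, holds a catalytic (C) subunit, and a regulatory (B) subunit joins them and chooses the substrates and the place in the cell. The B55 and B56 families of B subunits are unrelated in sequence. PP2A can remove activating phosphates from kinases such as AKT, ERK and S6 kinase, and it is known as a brake on growth factor and mTORC1 signaling.

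The catalytic pair is shown first, because both genes encode nearly the same enzyme, so their levels can be told apart only where the transcripts differ. The coding sequences of Ppp2ca and Ppp2cb are 930 bases each and had the same base at 760 positions (81.7%). The longest run without a difference was 25 bases, well below the 94 bases of a read. The last 30 coding bases, which end in the stop codon and encode the tail that LCMT1 methylates and PME-1 demethylates, are printed 5′ to 3′ with the bases that differ in capitals. Ppp2ca (chr11:51935447-51935476, plus strand, NCBIM37) and Ppp2cb (chr8:34729637-34729666, plus strand) each carry this stretch in exon 7 of 7.
Ppp2ca: acTcgTcgTaccccagactacttcctgtaa
Ppp2cb: acCcgGcgCaccccagactacttcctgtaa
The tail differed at 3 of 30 bases. Over the longest transcript of each gene, 0 of 7009 windows of 94 bases in Ppp2ca were found in a protein-coding transcript of any other gene. In Ppp2cb 116 of 1733 windows were, all of them in Ubxn8, which overlaps its end on the opposite strand. Ppp2r1b shared 486 of 3554 windows with Sik2 and Ppp2r5d 22 of 2833 with Mea1, both again overlapping neighbours on the opposite strand. The other 7 genes shared none. Between 99.37% and 99.51% of reads lay on the correct strand, but whether the quantification used strand is not given in the sources used here, so the levels of these 3 genes may hold reads of their neighbours. Pseudogenes were not searched.

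All of the 10 genes passed the filter of a mean of 1 TPM. TPM is a level per transcript length, scaled to the same total in every library, so levels can be compared between genes. Together they made up 0.0692% to 0.0802% of all TPM. Ppp2r5a, which encodes B56α, was the highest at a mean of 253 TPM over the 6 libraries, above 96.5% of the 9775 genes tested. Ppp2r5c (B56γ) at 118 TPM, Ppp2cb at 118 TPM and the main scaffold gene Ppp2r1a at 111 TPM followed close together. Below them came Ppp2ca at 63.7 TPM and Ppp2r2d (B55δ) at 38.8 TPM. Ppp2r5e (B56ε), Ppp2r2a (B55α) and Ppp2r5d (B56δ) were at 17.4, 15.4 and 14.6 TPM. Ppp2r1b, the second scaffold gene, was the lowest at 4.66 TPM, so the range from top to bottom was 54.5-fold.

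Of the 9 pairs of neighbours in this order, 6 kept their order in all of the 6 libraries (exact paired permutation test over libraries, two-sided, p = 0.0313, the smallest that 6 libraries allow, and 0.0469 after Benjamini-Hochberg adjustment). The order came from the same 6 libraries, and a bias of 1 gene shared by all of them would not show in this test. For the other 3 pairs no difference was shown. Ppp2r5c and Ppp2cb differed by 0.0040 ± 0.085 on the log2 scale (SD, n = 6; exact permutation test, adjusted p = 0.875). Ppp2cb and Ppp2r1a differed by 0.088 ± 0.12 (SD, n = 6; exact permutation test, adjusted p = 0.121). Ppp2r2a and Ppp2r5d differed by 0.078 ± 0.21 (SD, n = 6; exact permutation test, adjusted p = 0.387).

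**Figure D1:**
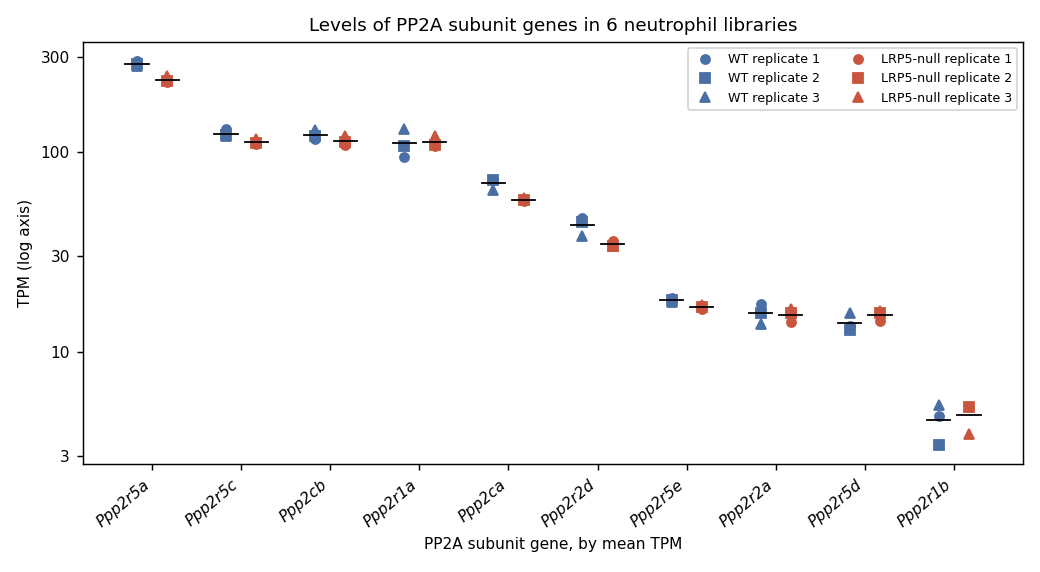
Level of each PP2A subunit gene in TPM (vertical log axis) in the 3 libraries labelled WT (blue) and the 3 labelled LRP5-null (red), ordered by mean TPM. Points are libraries, marked by replicate number, and bars are group means. Ppp2r5a stands at the top in every library and Ppp2r1b at the bottom.

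The question for each gene was whether its level differed between the 2 genotypes. Of the 10 genes, 7 had a log2 fold change below 0, where 41.2% of all genes tested did. The median over the 10 was −0.098, beside 0.040 over all genes tested. Groups did not overlap in 5 genes, Ppp2r5a, Ppp2ca, Ppp2r2d, Ppp2r5c and Ppp2r5e, all lower in the libraries labelled LRP5-null. Over all genes tested, 12.3% had groups apart in that direction. With an adjusted p under 0.05 in limma, 0 of the 10 were called, beside 0.532% of all genes, and 3 had an unadjusted p under 0.05, beside 23.5%. Since the family was chosen on this comparison, these counts describe it and support nothing further. In bulk RNA, fewer cells of a type and less RNA per cell cannot be told apart.

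Ppp2r5a lies on chromosome 1 from 193175860 to 193220920, minus strand, of NCBIM37. B56α, its product, is a regulatory subunit known for bringing PP2A to MYC and to other proteins that carry its short docking motif. It was 286, 275 and 268 TPM in WT replicates 1 to 3 and 224, 227 and 240 TPM in those labelled LRP5-null. The highest library labelled LRP5-null was thus below the lowest labelled WT, and the group means were 277 ± 8.98 and 231 ± 8.73 TPM (SD, n = 3 each). The log2 fold change was −0.26 with a standard error of 0.063. It stayed between −0.29 and −0.24 with any 1 library left out and was −0.34 after correction for GC and length (removal of each library's trend of gene levels with these transcript properties). The GC content of this transcript is 53.5%.

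The remaining B56 genes were lower by less, or not lower. Ppp2r5c lies on chromosome 12 from 111685518 to 111821271, plus strand. It was 130, 121 and 120.0 TPM in the libraries labelled WT and 110.0, 111 and 116 TPM in those labelled LRP5-null (log2 fold change −0.13, standard error 0.065). Ppp2r5e was 18.5, 18.1 and 17.6 TPM against 16.4, 16.8 and 17.2 TPM, a narrow gap without overlap (log2 fold change −0.10, standard error 0.067). Ppp2r5d was 13.4, 12.9 and 15.6 TPM against 14.2, 15.7 and 15.9 TPM, with WT replicate 3 inside the range of the libraries labelled LRP5-null (log2 fold change 0.12, standard error 0.094). Its value was 0.20 without WT replicate 3, 0.072 without WT replicate 2, 0.011 with the ribosomal share as a covariate and 0.030 after correction for GC and length.

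The make-up of the B56 class moved with these levels. Ppp2r5a held 63.9%, 64.4% and 63.7% of the summed TPM of the 4 B56 genes in the libraries labelled WT and 61.4%, 61.3% and 61.7% in those labelled LRP5-null. This is a difference of −2.54 percentage points between groups that do not overlap, with an SD of 0.39 and 0.20 points within them. The ratio of Ppp2r5a to Ppp2r5c was 2.20 to 2.27 in the libraries labelled WT and 2.03 to 2.07 in those labelled LRP5-null. WT replicate 3, at 2.24, lay with the other libraries of its label. A ratio within a library does not change with its scaling, but the 2 transcripts differ in GC content (53.5% and 46.1%). As deposited, the log2 fold changes were −0.26 for Ppp2r5a and −0.13 for Ppp2r5c. After correction for GC and length they were −0.34 and −0.11. The ratio was not corrected itself, and the part of the GC lean of the libraries in it was not tested. The summed ratios of B56 to B55 genes and of catalytic to scaffold genes overlapped between groups. Each of the other B56 genes among the 10 held a larger share in the libraries labelled LRP5-null. The difference was 1.42 points for Ppp2r5c, 0.83 for Ppp2r5d and 0.29 for Ppp2r5e. Ppp2r5b, a further B56 gene given below among the partners, is not in these sums.

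**Figure D2:**
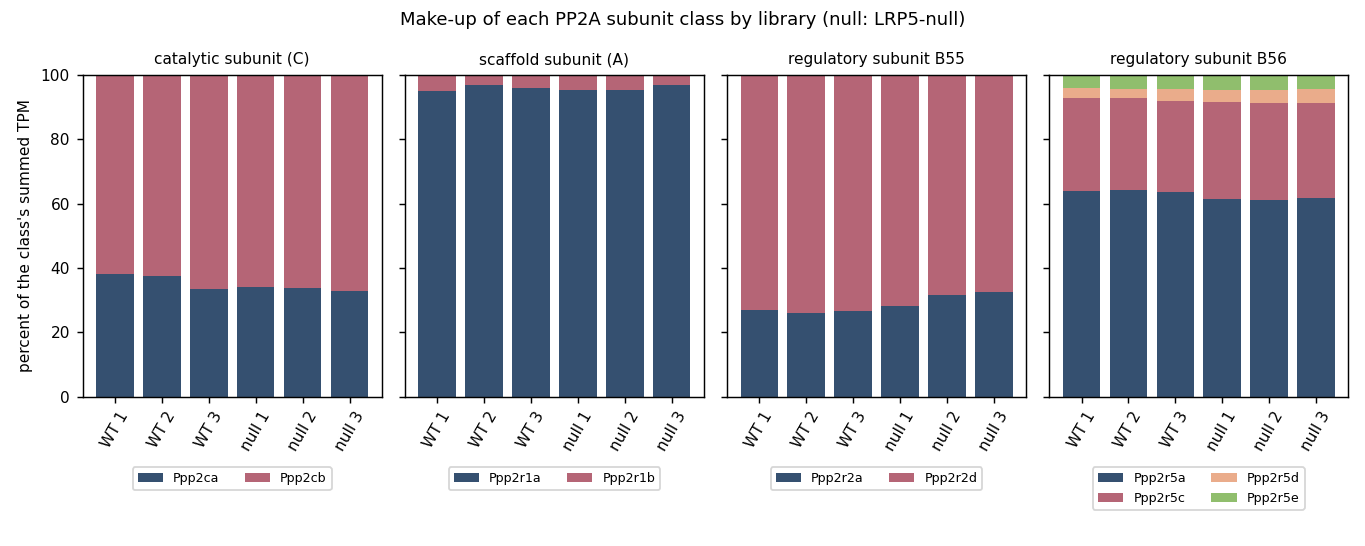
Share of each gene in the summed TPM of its subunit class, counted over the 10 genes (vertical axis, percent) for each library, one panel per class. In the B56 panel, Ppp2r5a takes 63.7% to 64.4% in the libraries labelled WT and 61.3% to 61.7% in those labelled LRP5-null, and in the B55 panel Ppp2r2a takes more in the latter.

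Of the B55 genes, one was lower and one was not. B55 subunits guide PP2A to mitotic substrates of CDK1 and to AKT. Ppp2r2d lies on chromosome 7 from 146037762 to 146074740, plus strand. It was 46.9, 44.7 and 37.7 TPM in the libraries labelled WT and 35.6, 33.9 and 33.9 TPM in those labelled LRP5-null. Groups did not overlap, though WT replicate 3 stood nearer to the libraries labelled LRP5-null than to the other WT libraries (log2 fold change −0.31, standard error 0.093, and −0.40 without WT replicate 3). With the ribosomal share as a covariate its log2 fold change was −0.18. Ppp2r2a was 17.2, 15.6 and 13.7 TPM against 14.0, 15.7 and 16.3 TPM, with overlap (log2 fold change −0.015, standard error 0.10). It was −0.097 without WT replicate 3, and its sign turned to 0.017 after correction for GC and length and to 0.086 with the ribosomal share as a covariate. The share of Ppp2r2a in the B55 pair was 25.9% to 26.9% in the libraries labelled WT and 28.2% to 32.5% in those labelled LRP5-null.

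Of the catalytic genes, Ppp2ca separated the groups and Ppp2cb did not. Ppp2ca, on chromosome 11 from 51912183 to 51941280, plus strand, was 72.1, 72.5 and 64.5 TPM in the libraries labelled WT and 56.7, 57.7 and 59.0 TPM in those labelled LRP5-null (log2 fold change −0.26, standard error 0.072). With the ribosomal share as a covariate its log2 fold change was −0.19. Ppp2cb, on chromosome 8 from 34710093 to 34730266, plus strand, was 117, 120.0 and 128 TPM against 109, 112 and 120.3 TPM, with overlap (log2 fold change −0.095, standard error 0.071, and −0.056 without WT replicate 3). Ppp2cb was the more abundant in every library. The ratio of Ppp2cb to Ppp2ca was 1.62, 1.66 and 1.99 in WT replicates 1 to 3 and 1.92, 1.95 and 2.04 in the libraries labelled LRP5-null, so WT replicate 3 lay among the latter and the groups overlapped. Summed over both genes, catalytic TPM was 189 to 193 in the libraries labelled WT and 166 to 179 in those labelled LRP5-null.

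Scaffold genes did not separate the groups. Ppp2r1a was 94.9, 107 and 130 TPM in the libraries labelled WT and 107, 108 and 120.3 TPM in those labelled LRP5-null. The WT libraries spanned the whole range of the others. Its log2 fold change was 0.025 (standard error 0.12), 0.15 without WT replicate 3, −0.019 with median-ratio scaling, −0.067 after correction for GC and length and −0.15 with the ribosomal share as a covariate, so the direction depended on the setting. Ppp2r1b was 4.77, 3.39 and 5.40 TPM against 5.24, 5.29 and 3.84 TPM, also with overlap (log2 fold change 0.076, standard error 0.16). It was 0.19 without WT replicate 3, 0.20 without LRP5-null replicate 3, −0.079 without WT replicate 2 and −0.058 with the ribosomal share as a covariate. Ppp2r1a held 95.2% to 96.9% of scaffold TPM in every library.

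**Figure D3:**
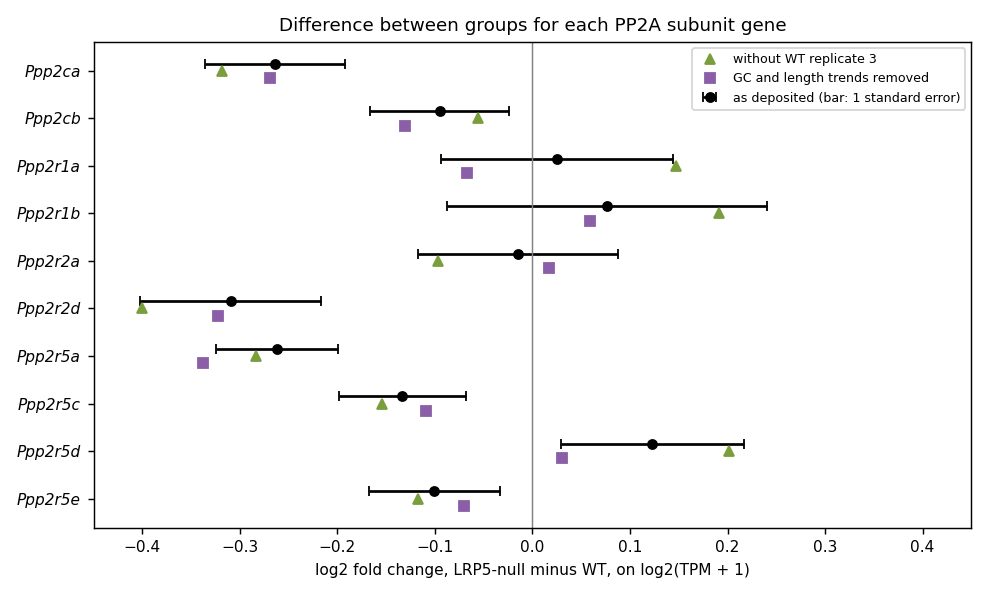
Log2 fold change of each PP2A subunit gene, LRP5-null minus WT, on the log2(TPM + 1) scale. Black points are the values as deposited with 1 standard error, green triangles leave out WT replicate 3 and purple squares follow correction for GC and length. Ppp2ca, Ppp2r2d and Ppp2r5a lie at −0.26 or lower in all 3 settings, while Ppp2r1a and Ppp2r2a cross 0. With the ribosomal share as a covariate, which is not drawn, Ppp2ca was −0.19 and Ppp2r2d −0.18.

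Read composition and some of the neutrophil maturity markers also differed between the groups. Intronic reads made up 7.78% to 9.0% of reads in the libraries labelled WT and 10.6% to 11.2% in those labelled LRP5-null. Of the 10 mature neutrophil markers, 7 had a log2 fold change below 0 (median −0.13), where 41.2% of all genes tested did. Groups did not overlap in 4 of the 10, all lower, beside 12.3% of all genes tested. Their summed level was 17580 to 18700 TPM in the libraries labelled WT and 15970 to 17070 TPM in those labelled LRP5-null. Of the 12 immature neutrophil markers, 11 were above 0 (median 0.21), where 5752 of the 9775 genes tested were. Groups did not overlap in 7 of the 12, all higher, beside 1703 of the 9775 genes tested. The immature sums overlapped, at 62880 to 67860 and 64690 to 67640 TPM. Ngp, the gene below 0 among the 12 (log2 fold change −0.14), made up 31330 to 38040 TPM of these sums. Camp was 12830 to 14310 TPM in the libraries labelled WT and 16900 to 18240 TPM in those labelled LRP5-null. None of these markers is at 0 in any library. The 6 eosinophil and basophil markers summed to 9.74 to 12.5 TPM in the libraries labelled WT and 12.95 to 14.2 TPM in those labelled LRP5-null. Of the 3 of them tested, limma called Prg2, an eosinophil granule gene, higher in the libraries labelled LRP5-null (log2 fold change 0.91, limma adjusted p = 0.0341). Epx, the eosinophil peroxidase gene, was too low to be tested, at 0, 0.024 and 0.034 TPM in the libraries labelled WT and 0.141, 0.067 and 0.116 TPM in those labelled LRP5-null, also without overlap. The other 4, Siglecf, Il5ra, Mcpt8 and Fcer1a, overlapped between groups. The 5 megakaryocyte and platelet markers summed to 3.10 to 4.41 and 4.88 to 5.66 TPM. When the ribosomal share was a covariate, the log2 fold changes of Ppp2r5a, Ppp2ca and Ppp2r2d were −0.24, −0.19 and −0.18. The part of maturity, of these other cells and of intronic reads in the subunit differences was not tested.

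Naip2 and Gatad1 were among the 3 genes, out of 9774, whose pattern over the 6 libraries was most like that of Ppp2r5a. Their root mean square difference from it in centred log2(TPM + 1) was 0.011 and 0.021. Naip2, an innate sensor of bacterial secretion systems, was 41.8 to 44.5 TPM in the libraries labelled WT and 34.7 to 37.5 TPM in those labelled LRP5-null. Within the family, Ppp2ca was the nearest at 0.041, ranked 65, and Ppp2r5c next at 0.066, ranked 369. Ppp2r1b was the farthest at 0.28. This likeness is a description over 6 libraries that share their scaling and genotype.

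The proteins around PP2A were taken from lists drawn up by role, 50 genes in all. Of these 42 passed the filter, and limma called 0 of them at an adjusted p under 0.05, against 0.532% of all genes tested. At an unadjusted p under 0.05 there were 10 (4 higher, 6 lower in the libraries labelled LRP5-null), against 23.5% of all genes tested. Their median log2 fold change was −0.095. Without WT replicate 3 limma called 11 of the 42 (3 higher, 8 lower), where 19.6% of all genes tested were called.

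Among the other regulatory subunits, Ppp2r2b and Ppp2r2c were listed at 0 in all of the libraries and Ppp2r3a stayed below 0.064 TPM. Strn, Strn3 and Strn4, the striatins that serve as a further class of B subunit, were 20.2 to 32.5 TPM. Ppp2r3c was 11.6, 11.6 and 9.31 TPM in the libraries labelled WT and 8.73, 9.52 and 8.78 TPM in those labelled LRP5-null (log2 fold change −0.24, limma adjusted p = 0.209, from 0.0281 to 0.493 in its alternatives). It was called without WT replicate 3 (−0.33), and its log2 fold change was −0.11 both after correction for GC and length and with the ribosomal share as a covariate. Ppp2r5b, the B56β gene, was 3.74, 3.80 and 5.27 TPM against 5.07, 4.64 and 5.94 TPM, so it stood far below the other B56 genes (log2 fold change 0.24, limma adjusted p = 0.31). Its value was 0.38 without WT replicate 3 (limma adjusted p = 0.0507, the lowest of its alternatives, which reached 0.791), 0.16 without LRP5-null replicate 3, 0.12 after correction for GC and length and 0.064 with the ribosomal share as a covariate.

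Of the 5 genes for assembly of the enzyme and methylation of its tail, 2 had groups without overlap, beside 29.7% of all genes tested. Lcmt1, the methyltransferase for the tail printed above, was 10.7, 10.3 and 10.6 TPM in the libraries labelled WT and 12.9, 12.0 and 13 TPM in those labelled LRP5-null (log2 fold change 0.24, limma adjusted p = 0.134). Tiprl, which binds free catalytic subunits, was 17.0, 16.7 and 15.7 TPM against 13.6, 14.3 and 13 TPM (log2 fold change −0.26, limma adjusted p = 0.127, over the alternatives 0.0359, when WT replicate 3 was left out, to 0.325). Ppme1, the demethylase, was 14.1 to 18.0 and 13.3 to 14.6 TPM, with overlap.

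Of the 8 inhibitor genes tested, 2 had a log2 fold change above 0 and 6 below. Arpp19, which blocks B55-bound PP2A after phosphorylation by MASTL, was 21.3, 24.0 and 23.3 TPM against 24.9, 26.4 and 29.3 TPM (log2 fold change 0.22, limma adjusted p = 0.186, and 0.40 after correction for GC and length). Ensa, its close relative, was 60.8 to 69.9 TPM over all libraries. Mastl averaged under 1 TPM and was not tested. Pabir2 was 1.15 to 1.66 and 0.473 to 1.24 TPM (log2 fold change −0.33, limma adjusted p = 0.285). LRP5-null replicate 3 weighed most, since the value was −0.14 without it, and it was −0.61 with a pseudocount of 0.1, −0.22 after correction for GC and length and −0.19 with the ribosomal share as a covariate.

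The STRIPAK partners, which tie striatin-bound PP2A to kinases, had the lowest median of these lists at −0.21 over 10 genes tested. Stk26, one such kinase, was 65.6, 55.6 and 47.1 TPM in the libraries labelled WT and 38.9, 38.4 and 36.0 TPM in those labelled LRP5-null (log2 fold change −0.55, standard error 0.12, limma adjusted p = 0.0855). It was called without WT replicate 3 (−0.66, limma adjusted p = 0.0117) and after correction for GC and length (−0.37, limma adjusted p = 0.0377), where 4.9% of all genes tested were called, and its adjusted p reached 0.281 in other alternatives. Mob4, an adaptor that binds striatin, was 48.6, 33.1 and 32.5 TPM against 28.6, 23.5 and 24.5 TPM (log2 fold change −0.54, limma adjusted p = 0.133, over the alternatives 0.0444, when WT replicate 3 was left out, to 0.348). Its log2 fold change was −0.35 without WT replicate 1 and −0.25 after correction for GC and length. Stk24, another kinase of the complex, was 154, 152 and 159 TPM against 129, 137 and 145 TPM, without overlap (limma adjusted p = 0.183, up to 0.426 in its alternatives), and was called after that correction (−0.25, limma adjusted p = 0.0455).

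PP4 and PP6 are the closest relatives of PP2A, with their own catalytic and regulatory subunits. Of their 14 genes, 13 were tested and 0 called, with a median log2 fold change of −0.063. Ppp6c, the PP6 catalytic gene, was 35.0, 33.3 and 29.1 TPM in the libraries labelled WT and 23.5, 13.8 and 24.2 TPM in those labelled LRP5-null (log2 fold change −0.67, standard error 0.20, limma adjusted p = 0.133). The value was −0.43 without LRP5-null replicate 2, and −0.43 after correction for GC and length. Ankrd52, a PP6 ankyrin subunit gene, was 6.11, 6.73 and 7.39 TPM against 8.39, 8.73 and 9.11 TPM (log2 fold change 0.33, limma adjusted p = 0.112, over the alternatives 0.0234, when WT replicate 3 was left out, to 0.326), and its log2 fold change after correction for GC and length was 0.16. Ppp4c, the PP4 catalytic gene, was 131 to 171 TPM and 151 to 176 TPM, with overlap. Ppp4r3a (log2 fold change −0.24, limma adjusted p = 0.234) and the annotated pseudogene Ppp4r1l-ps (0.24, limma adjusted p = 0.206) had the smallest unadjusted p of the PP4 list. Ppp4r3a was −0.15 without LRP5-null replicate 1, and Ppp4r1l-ps was 0.14 with the ribosomal share as a covariate and with quantile scaling.

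**Figure D4:**
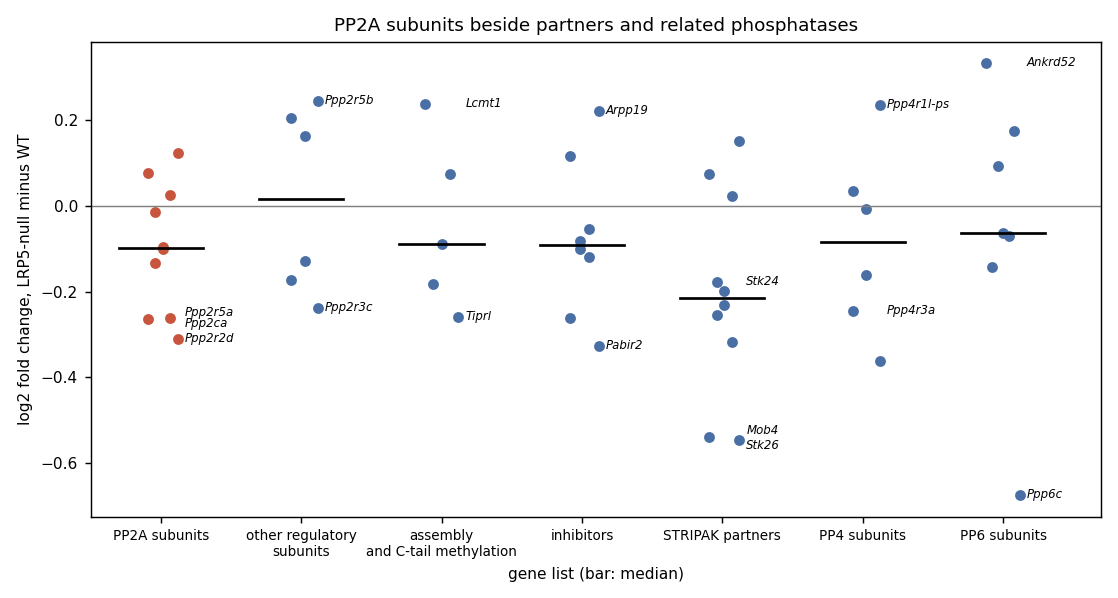
Log2 fold change, LRP5-null minus WT, of the 10 PP2A subunit genes (red) and of the tested genes of each partner list (blue), with the median of each list as a bar. Some of the genes named in the text are labelled. STRIPAK partners have the lowest median, −0.21, and Ppp6c the lowest single value, −0.67.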

How the data were processed

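RNA of bone marrow neutrophils was sequenced in 6 libraries. The authors aligned reads to mm9 and name the DESeq2 pipeline, and they deposited TPM per gene, whose tool is not given in the sources used here. The deposited read summary holds counts of reads, percent shares, a ratio for coverage bias at transcript ends, a coverage variation score and sizes in bases. The methods differ from the labels in cell isolation (sorting on CD11b and Ly6G, against a Percoll gradient), in library kit (stranded total RNA, against mRNA) and in read layout, which they call single-end. The summary lists paired-end reads of 94 bases, longer than those named in the methods. The windows of 94 bases used above follow the summary.

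TPM keeps no counts, so the counting error of a gene is unknown and a count model could not be used. Genes whose mean over the libraries reached 1 TPM (9775) were tested on log2(TPM + 1), which understates changes of low genes, with limma 3.58.1 in R 4.3.3, a mean-variance trend, no covariate and Benjamini-Hochberg adjustment over all of them. Neighbouring levels were compared with an exact sign-flip permutation test (Python 3.11.15, numpy 2.4.6).

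Gene spans, transcript length and GC content came from GENCODE M1 (NCBIM37, the build called mm9 in the methods), matched without identifier version for 89.7% of genes tested. The identifiers of the table are from a later annotation. GC and length trends were removed with splines per library. Itgam, listed on 2 rows, was left out of the neutrophil markers. Members, lists and tests were chosen with earlier results of these data known. The genes named are the members, the 2 genes of smallest unadjusted p in each partner list, the 3 most like Ppp2r5a (1 of them is not reported here), and Lrp5 and Lyz2 as genotype checks. The others named (markers, Strn, Strn3, Strn4, Ppp2r2b, Ppp2r2c, Ppp2r3a, Ppme1, Ensa, Mastl, Stk24, Ppp4c) were added after their values were seen. Alternatives were another pseudocount (0.1), filters (none, 5 TPM), median-ratio and quantile scaling, limma with no trend, robust shrinkage in limma, leaving out each library, a replicate block, the ribosomal share as a covariate and removal of GC and length trends. Restriction to genes with GC and length was added after the data were seen.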

Additional observations from a re-analysis of the deposited data

How the results depend on the processing

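Over 17 alternatives, 7 of the PP2A subunit genes kept the sign of their log2 fold change, and Ppp2r1a, Ppp2r1b and Ppp2r2a did not. Filters, limma with no trend and robust shrinkage leave a fold change as it is. So do the replicate block and the restriction to genes with GC and length. Only the other alternatives could move a sign. With 1 library left out, Ppp2r1a was −0.079 without WT replicate 1 and −0.029 without LRP5-null replicate 3, and Ppp2r2a 0.059 without WT replicate 1 and 0.045 without LRP5-null replicate 1. Their median of −0.098 was −0.14 with median-ratio scaling, which also lowered that of all genes to 0.0032, and ranged from −0.13 to −0.073 with 1 library left out. The number of genes called over all genes tested was 52 (26 higher). It was 3 of 23220 genes without a filter (3 higher) and 29 of 6745 with a filter at 5 TPM (10 higher). With the ribosomal share as a covariate it was 6 (1 higher). After correction for GC and length it was 430 of 8769 genes (157 higher), where 40 of the same genes were called without the correction (18 higher). With 1 library left out it ranged from 2 to 1920, the most without WT replicate 3. The cause of the moves in this number was not tested. Of the subunit genes 0 were called, and 0 to 3 with 1 library left out. The 3 came without WT replicate 3, where 19.6% of all genes tested were called. Of the partner genes 0 were called, and 0 to 11 with 1 library left out (11 without WT replicate 3). After correction for GC and length 2 were called (Stk26 and Stk24), where 4.9% of all genes tested were. Replicate numbers did not pair the libraries (correlations of deviations 0.23, −0.008 and 0.13), and a replicate block gave 4 calls over all genes tested, 0 of them among subunit or partner genes. TPM hides the depth behind each gene.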

Other observations

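Anp32a, which encodes an inhibitor of PP2A, varied most among the abundant partner genes without following the genotype. It was 376, 213 and 189 TPM in WT replicates 1 to 3 and 263, 166 and 270 TPM in the libraries labelled LRP5-null (log2 fold change standard error 0.28, limma adjusted p = 0.825). Ptpa, which encodes an activator of the PP2A catalytic subunit, was 17.0 TPM in WT replicate 1 and 23.4 to 29.0 TPM in the other libraries. Sike1, a STRIPAK gene, was 5.96 TPM in LRP5-null replicate 2 and 10.0 to 12.3 TPM in the others. These genes were picked after their values were seen.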
